A study of Mus musculus with 4 samples.

Results

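The genes described here are the enzymes and regulators with which a cell makes cholesterol and long-chain fatty acids. They were chosen by name, as 35 gene symbols of these pathways, and all 35 were among the 22865 symbols of the count table. Of these, 18 encode the steps from acetoacetyl-CoA to cholesterol, 6 encode regulators of the pathway and a sterol carrier, and 11 encode the steps that make, elongate and desaturate fatty acids. After a filter on low counts 30 of the 35 could be tested, namely 16 of the sterol enzymes, all 6 regulators and 8 of the fatty acid enzymes.

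Cholesterol is built from acetyl-CoA through mevalonate, isoprenoid chains, squalene and lanosterol, and fatty acids are built from the same acetyl-CoA in the cytosol. Both pathways are driven by the SREBP transcription factors, which wait in the endoplasmic reticulum bound to the escort protein SCAP. When membrane sterol is low SCAP carries them to the Golgi for cleavage, and when sterol is high the INSIG proteins hold them back. SREBP-2 acts mainly on sterol genes and SREBP-1 mainly on fatty acid genes. Sterol intermediates of the pathway can bind RORγt, the nuclear receptor that directs the interleukin-17 program of T cells.

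The libraries came from lung γδ T cells of 10-week-old female C57Bl/6 mice, either Aire-/- or Aire+/+, with 2 libraries per genotype and 500 sorted cells per library. Aire is a regulator of medullary thymic epithelial cells that lets developing T cells meet tissue-restricted proteins, and the series asks what its loss does to peripheral γδ T cells that make interleukin-17. The cells were gated as positive for CD45 and the γδ receptor and negative for TCRβ, CD27 and 4 Vγ chains, and their RNA was made into full-length cDNA by Smart-Seq2, a protocol meant for few cells. Nothing in the labels says whether the libraries of a genotype came from separate animals, and the p-values therefore reflect only library-to-library spread, which may be technical. Total counts ran from 1106891 to 1265239 per library. Aire had 0 counts in all 4 libraries, which allows up to 3 counts (2.42 to 2.83 CPM), so it checked no genotype label. All 13 markers of interleukin-17 γδ T cells were detected, at a summed 5032 to 8129 CPM. B cell markers, which the gate should exclude, summed to 2202 to 4539 CPM.

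All levels below are read counts scaled to library size and TMM factors (CPM), which put the libraries on a common scale. Sums over genes, and the ratios of such sums, used CPM without scaling by transcript length. Except where CPM is named, levels of different genes were compared per kilobase of the longest coding transcript. Per kilobase the fatty acid enzymes Scd1, Acly and Elovl5 stood highest. Scd1, the stearoyl-CoA desaturase that makes oleate, averaged 61.6 CPM per kilobase over the 4 libraries. Acly, which cleaves citrate to cytosolic acetyl-CoA, averaged 57.5 and Elovl5, an elongase of polyunsaturated chains, 55.6. The ranges of these 3 genes over the libraries overlapped, so their order was not resolved. The next gene was Ebp, the sterol isomerase, at 30.8 CPM per kilobase, and its 4 libraries (21.8 to 36.7) lay below those of the leading 3, whose lowest value was 45.7.

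Within the sterol pathway the levels were uneven from step to step. Ebp, Fdps and Hmgcs1 stood highest at 30.8, 23.8 and 23.6 CPM per kilobase. Fdps makes farnesyl diphosphate and Hmgcs1 makes HMG-CoA. Around lanosterol the level was low, with Fdft1 (squalene synthase) at 3.90, Sqle (squalene epoxidase) at 4.36 and Lss (lanosterol synthase) at 4.81. It was higher at Cyp51, the lanosterol demethylase, at 15.4, and low again at the last step, Dhcr7, at 4.47. Tm7sf2, a sterol C14 reductase, was too low to test, with 3 and 2 counts in the Aire-/- pair and 3 and 0 in the Aire+/+ pair. The same step has another reductase, Lbr, which was not among the genes chosen. Lbr stood at 466 and 603 CPM in Aire-/- and 471 and 420 CPM in Aire+/+ libraries, not scaled by length. The low Tm7sf2 therefore does not describe the step. Acat2, the cytosolic thiolase at the entry of the pathway, had 7 and 12 against 10 and 6 counts and was not tested either. Counts of Acat2 are uncertain, because its transcript is 97.7% identical to that of Acat3 over 1477 bases and 98.7% identical to that of Tcp1 over 445 bases (GENCODE M21).

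**Figure D1:**
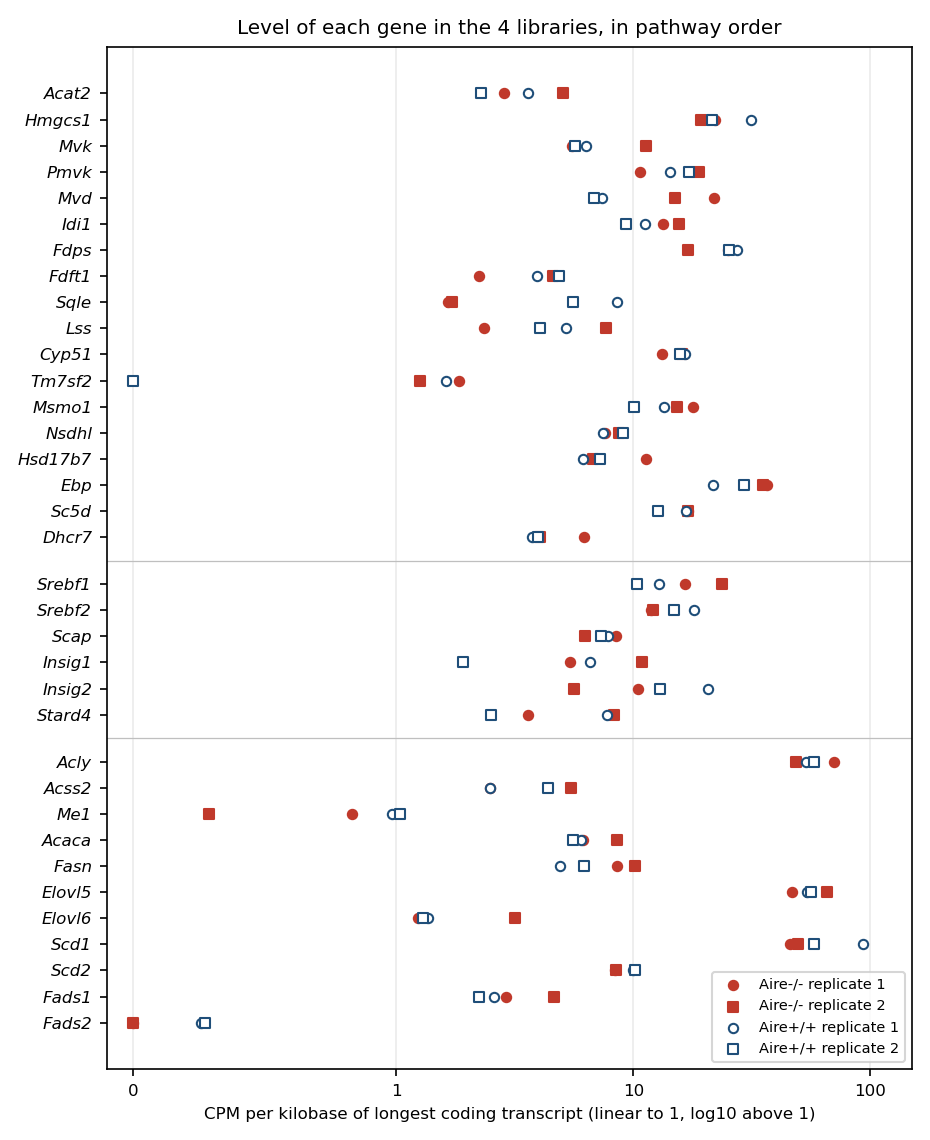
Level of each of the 35 genes in pathway order, in CPM per kilobase of the longest coding transcript (linear up to 1, log10 above). Filled symbols are the Aire-/- and open symbols the Aire+/+ libraries, circles replicate 1 and squares replicate 2. Scd1, Acly and Elovl5 lie highest, at averages of 61.6, 57.5 and 55.6, and Sqle is the sterol enzyme whose genotypes lie farthest apart.

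The fatty acid arm was uneven too. Behind Acly, the committing carboxylase Acaca averaged 6.57 CPM per kilobase and the synthase Fasn 7.45. Scd2, the second desaturase, averaged 9.24, so Scd1 was the main desaturase transcript. The transcripts of Scd1 and Scd2 are 95.5% identical over 623 bases, and how shared reads were assigned is not given in the sources used here. The desaturases Fads1 and Fads2 of polyunsaturated chains and the palmitate elongase Elovl6 were low, unlike Elovl5. Fads1 averaged 3.08 and Elovl6 1.76 CPM per kilobase. Fads2 had 0 counts in both Aire-/- libraries, which allows up to 3 counts (2.74 and 2.83 CPM), and 1 count in each Aire+/+ library. Me1, the malic enzyme that supplies NADPH, had 1 to 4 counts per library.

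Promoters of these genes are shown because the SREBP factors and the factor NF-Y bind there. The RefSeq table (GRCm38.p6, from 250 bases before to 50 after a gene's start) held 37 windows for 28 of the 35 genes. The core of the sterol regulatory element, searched as TCACNCCAC on both strands, was in 1 of the 37 windows, that of Hmgcs1, and in 1.24% of 32851 promoters of the same length. The NF-Y letters CCAAT were in 24 windows (64.9%, against 37.4% of all promoters), the Sp1 letters GGGCGG in 27 (73.0% against 35.7%) and the E-box CACGTG, a palindrome, in 7 (18.9% against 7.15%). None of these 4 motifs contains or is part of another. These are matches of letters, not measured sites.

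The window of Hmgcs1 (chr13:119690101-119690400, plus strand) holds the sterol element core and 4 CCAAT matches. Those of Mvd (chr8:122443373-122443672, minus strand) and Fasn (chr11:120824498-120824797, minus strand) belong to the enzymes of each arm with the smallest p among those higher in Aire-/- libraries, with 2 and 3 CCAAT matches. The window of Insig2 (chr1:121332540-121332839, minus strand, the first of 3 for this gene) belongs to the regulator with the largest difference and holds 3. The other windows of Insig2 hold 0 CCAAT matches each. Sqle and Scd1 have no entry in the table. Each line reads 5′ to 3′ with TCACNCCAC and CCAAT matches on either strand in capitals, and overlapping matches run together.
Hmgcs1 promoter: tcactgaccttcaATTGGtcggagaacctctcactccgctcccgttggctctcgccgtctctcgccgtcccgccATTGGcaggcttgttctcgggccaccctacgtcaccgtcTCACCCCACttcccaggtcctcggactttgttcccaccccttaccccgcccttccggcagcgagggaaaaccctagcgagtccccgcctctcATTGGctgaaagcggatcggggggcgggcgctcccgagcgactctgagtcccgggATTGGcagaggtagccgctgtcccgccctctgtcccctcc
Mvd promoter: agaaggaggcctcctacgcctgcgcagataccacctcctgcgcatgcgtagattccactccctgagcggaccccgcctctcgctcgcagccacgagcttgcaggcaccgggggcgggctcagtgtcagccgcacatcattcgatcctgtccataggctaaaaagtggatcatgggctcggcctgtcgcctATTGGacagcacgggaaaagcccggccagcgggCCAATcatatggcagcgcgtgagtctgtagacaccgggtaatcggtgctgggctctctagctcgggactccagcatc
Fasn promoter: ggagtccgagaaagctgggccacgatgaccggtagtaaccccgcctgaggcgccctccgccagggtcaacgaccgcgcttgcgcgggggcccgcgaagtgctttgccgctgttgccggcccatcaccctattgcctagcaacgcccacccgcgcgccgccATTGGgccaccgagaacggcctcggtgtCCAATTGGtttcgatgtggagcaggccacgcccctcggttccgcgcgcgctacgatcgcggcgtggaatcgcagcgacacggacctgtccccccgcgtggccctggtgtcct
Insig2 promoter: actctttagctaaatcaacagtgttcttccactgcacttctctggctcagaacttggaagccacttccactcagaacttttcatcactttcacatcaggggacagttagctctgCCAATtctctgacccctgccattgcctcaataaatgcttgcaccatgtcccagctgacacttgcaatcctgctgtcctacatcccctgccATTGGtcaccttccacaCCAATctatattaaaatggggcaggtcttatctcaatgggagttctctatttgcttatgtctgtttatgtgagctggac

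The 2 genotypes were then compared. Of the 30 genes tested, 0 were called higher and 0 lower in Aire-/- libraries by edgeR's quasi-likelihood test at an adjusted p under 0.05 over 9783 genes, where 0.0204% of all genes were called. DESeq2's Wald test and limma-voom called 0 of them as well, with 3 higher and 2 lower at an unadjusted p under 0.05 by DESeq2 (116 and 111 over all 9783 genes) and 3 and 3 by limma-voom (264 and 234 over all genes). In the edgeR test an unadjusted p under 0.05 was reached by 3 genes with higher values (Mvd, Srebf1 and Fasn) and 3 with lower values (Sqle, Insig2 and Scd1) in Aire-/- libraries, together 6 of 30 or 20%, beside 5.57% of all genes tested. Sterol enzymes, regulators and fatty acid enzymes each held 1 of the higher and 1 of the lower genes. Both Aire-/- libraries lay above or below both Aire+/+ libraries for 16 of the 30 (53.3%), beside 34.4% of all genes tested, with 10 above (17.1% of all genes) and 6 below (17.3%). The counts at an unadjusted p under 0.05 varied with single libraries. Without Aire+/+ replicate 1 there were 4 higher and 0 lower, beside 257 and 172 of all 10721 genes then tested. Without Aire-/- replicate 2 there were 1 higher and 2 lower, beside 306 and 398 of all 10923. These counts describe the genes and were not tested against other lists.

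Of the markers of this and other cell types, edgeR called 0 between genotypes over all genes. At an unadjusted p under 0.05 were 4 of 10 B cell markers and 4 of 5 macrophage and monocyte markers on the lower side and 6 of 13 interleukin-17 markers on the higher side. Of all 9783 genes tested, 2.77% were on the lower and 2.8% on the higher side at that threshold, and 50.9% lay above 0 in log2 fold change. The 10 B cell markers summed to 2880 and 2202 CPM in Aire-/- and 4539 and 2863 CPM in Aire+/+ libraries, sums that overlap, and all 10 lay below 0 in log2 fold change. The 12 macrophage and monocyte markers summed to 373 and 413 against 883 and 439 CPM without overlap, and all 5 that could be tested lay below 0. Most of these sums came from Ctss (247 and 243 against 411 and 301 CPM) and Apoe (91.3 and 83.9 against 248 and 89.8 CPM). Of the 7 not tested, Emr1 and Cd68 had higher means in Aire-/- libraries (8.26 against 3.37 and 6.07 against 5.80 CPM), and the rest had lower ones. Aire+/+ replicate 1 was thus the highest library for both lists, as it was for Scd1, Sqle, Insig2, Srebf2 and Hmgcs1. The 13 markers of interleukin-17 γδ T cells summed to 7269 and 8129 against 5032 and 6920 CPM, and all 13 lay above 0. Cd163l1 made up most of each sum (3891 and 4356 against 2604 and 3723 CPM). The part of these cell types in the values of Scd1, Sqle, Insig2, Srebf2, Srebf1, Fasn and Mvd was not tested. Adipocyte markers were at 3 to 14 counts summed over 7 genes per library, with Cidec at 0 in all 4. Of 13 alveolar and airway epithelial markers, 11 stayed under 10 counts in all libraries, among them the surfactant gene Sftpc at 1 to 3 counts. Napsa of the same list was at 145 to 285 counts and made up most of its summed 160 to 265 CPM. The 11 markers of dividing cells summed to 448 and 353 against 502 and 388 CPM, overlapping between genotypes, with 10 of 11 below 0. The 7 endothelial markers summed to 125 and 121 against 158 and 208 CPM, and 4 of them stayed under 10 counts in all libraries. Pecam1 made up most of each sum (113 and 104 against 138 and 125 CPM). Cldn5 (3 and 3 against 6 and 50 counts) and Kdr (1 and 4 against 1 and 23) were high in Aire+/+ replicate 2 alone.

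**Figure D2:**
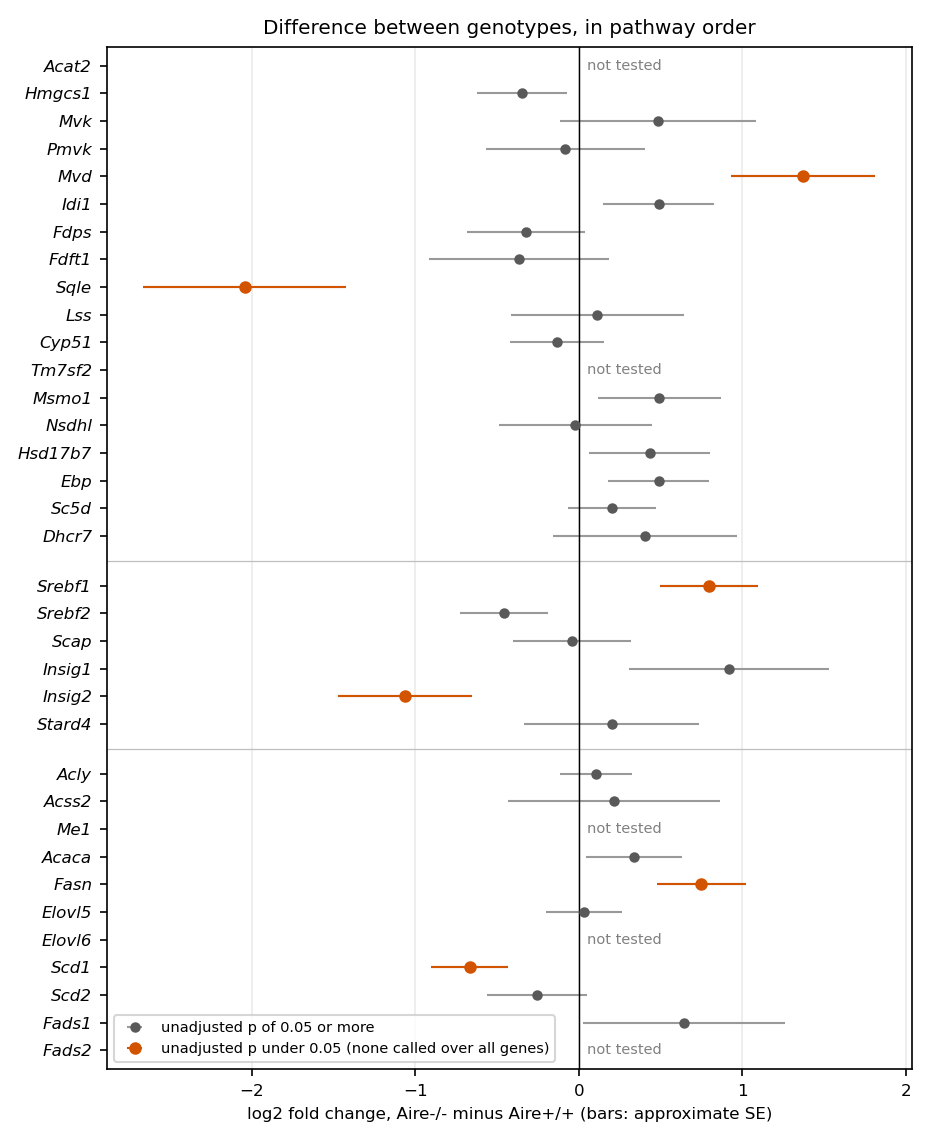
Log2 fold change of each gene in pathway order, Aire-/- minus Aire+/+, from the edgeR fit over all genes, with approximate SE as bars. The 6 coloured genes have an unadjusted p under 0.05, and none was called over all genes. Sqle at -2.04 and Mvd at 1.37 lie farthest from 0 on the 2 sides.

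Sqle epoxidizes squalene, the first step of the pathway that needs oxygen. It lies on chromosome 15 (59315077 to 59331192, GRCm38, plus strand) and is protein-coding. It stood at 4.57 and 4.71 CPM (5 and 5 counts) in the Aire-/- libraries and at 23.4 and 15.4 CPM (29 and 18 counts) in the Aire+/+ libraries. Both Aire-/- values were low and close to each other, and the genotypes did not overlap. The means were 4.64 ± 0.10 against 19.4 ± 5.68 CPM (SD, n = 2 each), a difference fitted at -2.04 on the log2 scale (SE 0.62, adjusted p = 0.83 by edgeR). Without Aire+/+ replicate 1 the log2 fold change was -1.71 and no longer met the unadjusted threshold of 0.05. Because these are bulk samples, fewer cells of a type and less RNA per cell cannot be told apart, here and in all values below.

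Mvd, the decarboxylase that makes isopentenyl diphosphate earlier in the same pathway, had higher values in Aire-/- libraries. It lies on chromosome 8 (122433601 to 122443422, minus strand). It stood at 38.4 and 26.4 CPM (42 and 28 counts) in Aire-/- and at 12.9 and 11.98 CPM (16 and 14 counts) in Aire+/+ libraries. The Aire+/+ libraries nearly coincided and both Aire-/- libraries lay above them. The log2 fold change was 1.37 (SE 0.44, adjusted p = 0.84 by edgeR). Without Aire-/- replicate 1 it was 1.08 and missed the unadjusted threshold.

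The other enzymes before squalene epoxidation showed smaller differences in mixed directions. Hmgcs1, the HMG-CoA synthase, stood at 76.7 and 66.9 against 108 and 74.4 CPM, so that Aire+/+ replicate 1 alone was high and the genotypes overlapped. Idi1, the isopentenyl diphosphate isomerase, stood at 40.2 and 47.1 against 33.9 and 28.2 CPM (log2 fold change 0.49, adjusted p = 0.94). Fdps stood at 34.7 and 23.6 against 37.98 and 35.1 CPM (-0.32, adjusted p = 0.97). The genotypes were apart for Idi1 and nearly touched for Fdps, at 34.7 and 35.1 CPM in the nearest libraries, and neither difference passed the test. Processed pseudogenes resemble both transcripts, one of Idi1 at 100% identity over 684 bases and one of Fdps at 98.9% over 1062 bases. The 2 kinases Mvk (0.48) and Pmvk (-0.083), which phosphorylate mevalonate and its phosphate, and the squalene synthase Fdft1 (-0.37) overlapped between genotypes. Fdft1 shares 774 exonic bases with Ctsb on the opposite strand, and reads of such a pair cannot be told apart where strand was not used in counting.

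Of the 8 enzymes tested from Lss to Dhcr7, the steps that make lanosterol and turn it into cholesterol, 6 lay above 0 and 0 reached an unadjusted p under 0.05. Msmo1, the C4 methyl oxidase, stood at 36.5 and 31.1 against 27.5 and 20.5 CPM (log2 fold change 0.49, adjusted p = 0.95 by edgeR). Ebp stood at 63.9 and 61.3 against 37.98 and 51.3 CPM (0.49, adjusted p = 0.94). Both genes had their 4 libraries split by genotype. Sc5d, the lathosterol desaturase, stood at 81.3 and 81.1 against 80.0 and 60.7 CPM (0.21), a split that rested on a gap of about 1 CPM between the nearest libraries. Dhcr7, the last reductase, stood at 17.4 and 11.3 against 10.5 and 11.1 CPM (0.41), again with nearly touching groups. Cyp51 (-0.13), the oxidoreductase Nsdhl (-0.021), the ketoreductase Hsd17b7 (0.43) and Lss (0.11) overlapped. Cyp51 shares 166 exonic bases with Akap9 on the opposite strand.

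Summed over genes, the chosen enzymes from Lss to Dhcr7, without Lbr, stood at 333 and 336 CPM in Aire-/- and at 292 and 277 CPM in Aire+/+ libraries. The enzymes from Acat2 to Sqle summed to 231 and 239 against 267 and 218 CPM, so the early part of the pathway overlapped and the late part did not. This division at lanosterol was chosen after the values were seen, and no test was made of it.

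**Figure D3:**
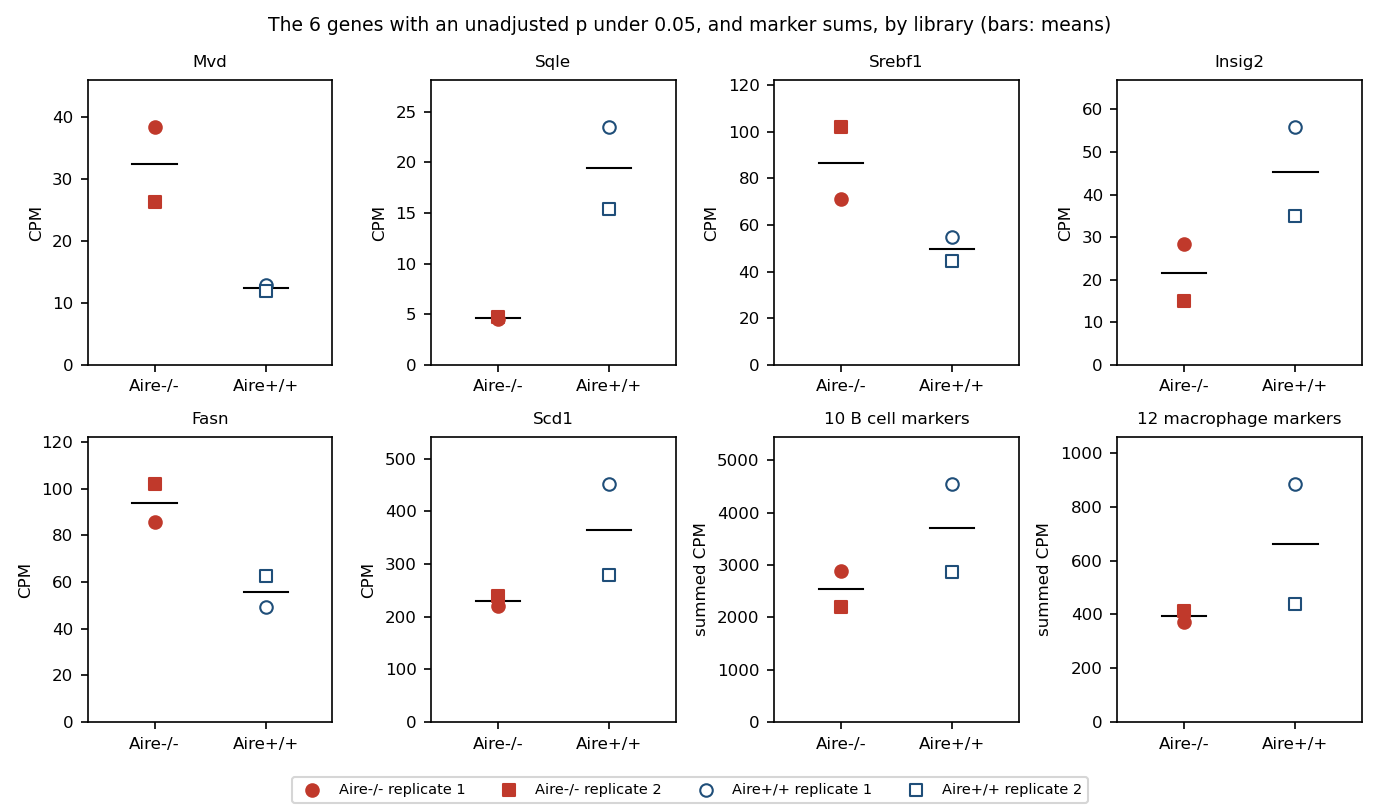
CPM by library of the 6 genes with an unadjusted p under 0.05, and summed CPM of 10 B cell and 12 macrophage and monocyte markers in the same libraries. Filled symbols are Aire-/- and open symbols Aire+/+ libraries, circles replicate 1 and squares replicate 2, and bars are means. Mvd, Srebf1 and Fasn lie higher in both Aire-/- libraries, and Aire+/+ replicate 1 is the highest library for Sqle, Insig2, Scd1 and both marker sums.

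Among the regulators, the genes of each pair lay on opposite sides of 0. Srebf1, which encodes SREBP-1, lies on chromosome 11 (60199089 to 60222581, minus strand) and stood at 71.2 and 102 CPM in Aire-/- and 54.9 and 44.5 CPM in Aire+/+ libraries. Srebf2, which encodes SREBP-2, lies on chromosome 15 (82147181 to 82205379, plus strand) and stood at 60.3 and 61.3 against 91.3 and 75.3 CPM. Neither gene overlapped between genotypes, with log2 fold changes of 0.80 (SE 0.30, adjusted p = 0.89 by edgeR) and -0.46 (SE 0.27, adjusted p = 0.93). In CPM per kilobase, Srebf1 stood above Srebf2 in both Aire-/- libraries (16.6 against 11.9 and 23.7 against 12.1). It stood below Srebf2 in both Aire+/+ libraries (12.8 against 17.99 and 10.3 against 14.8). Srebf1 shares 109 exonic bases with Rai1 on the opposite strand. The log2 fold change of Srebf1 was 0.51 when Aire-/- replicate 2 was left out and 0.65 when Aire+/+ replicate 2 was left out, and it missed the unadjusted threshold in both fits.

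The INSIG genes, whose products retain SCAP, were the other pair. Insig2, the form that is made without need of SREBP, lies on chromosome 1 (121304353 to 121332589, minus strand). It stood at 28.3 and 15.1 CPM (31 and 16 counts) in Aire-/- and 55.8 and 35.1 CPM (69 and 41 counts) in Aire+/+ libraries. Both Aire-/- libraries were lower, but libraries within a genotype differed too, and the log2 fold change was -1.06 (SE 0.41, adjusted p = 0.89 by edgeR). Leaving out Aire+/+ replicate 1 gave -0.70 and leaving out Aire-/- replicate 2 gave -0.69, and the gene missed the unadjusted threshold in both. Insig1, itself a target of SREBP, stood at 14.6 and 29.2 against 17.8 and 5.13 CPM (16 and 31 against 22 and 6 counts). Its genotypes overlapped, and the log2 fold change of 0.92 (SE 0.61, adjusted p = 0.94) ran from 0.30 to 2.06 as single libraries were left out. It met the unadjusted threshold at 1.34 without Aire-/- replicate 1 and at 2.06 without Aire+/+ replicate 1. Scap differed by -0.043 (adjusted p = 0.99).

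Fasn, the enzyme that assembles palmitate, had the smallest p among fatty acid enzymes that were higher in Aire-/- libraries. It lies on chromosome 11 (120805846 to 120824547, minus strand) and stood at 85.9 and 102 CPM in Aire-/- and 49.3 and 62.5 CPM in Aire+/+ libraries. The libraries of each genotype lay together and apart from the other genotype, and the fitted difference was 0.75 on the log2 scale (SE 0.27, adjusted p = 0.89 by edgeR). Without Aire+/+ replicate 1 it was 0.58 and without Aire-/- replicate 2 it was 0.62, and both missed the unadjusted threshold. Acaca, which supplies the malonyl-CoA that Fasn uses, stood at 58.5 and 81.1 against 57.4 and 53.05 CPM (0.34, adjusted p = 0.96), with only about 1 CPM between the nearest libraries. A processed pseudogene matches Acaca at 99.2% over 6118 bases. Acly (0.10) and Acss2 (0.21), the sources of acetyl-CoA from citrate and acetate, overlapped between genotypes.

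Scd1, which desaturates the chains that Fasn starts, lay on the other side of 0. It lies on chromosome 19 (44394455 to 44407879, minus strand) and stood at 221 and 240 CPM in Aire-/- and 451 and 280 CPM in Aire+/+ libraries. Aire+/+ replicate 1 was far above the rest, and the other Aire+/+ library was close to the Aire-/- pair. The log2 fold change was -0.67 (SE 0.24, adjusted p = 0.89 by edgeR). It was -0.29 without Aire+/+ replicate 1, where it missed the unadjusted threshold. It was -0.97 without Aire+/+ replicate 2, with an adjusted p = 0.049 by edgeR, and this was the sole fit among those run that called any of the 35 genes. That fit called 21 genes higher and 42 lower of 10629 tested, against 0 and 2 with all libraries. In that fit the lone Aire+/+ library is assumed to vary like the Aire-/- pair. Scd2 stood at 45.7 and 46.2 against 54.1 and 55.6 CPM (-0.26, adjusted p = 0.98), lower in both Aire-/- libraries with little spread in either genotype. Fads1, a desaturase of polyunsaturated chains, stood at 10.05 and 16.03 against 8.89 and 7.70 CPM (0.64, adjusted p = 0.97), and Elovl5 overlapped (0.03).

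Libraries of the same genotype differed for several single enzymes. For each gene the ratio of the 2 libraries was set against its exact 95% interval from counts, which covers counting error only, because reads without molecular identifiers are not independent molecules. The interval excluded equality for 7 of 30 genes in Aire-/- (23.3%, beside 25.7% of all genes tested) and for 5 of 30 in Aire+/+ libraries (16.7%, beside 25.8%). The sterol enzymes contributed 2 of 16 and 1 of 16, the fatty acid enzymes 2 of 8 and 1 of 8, and the 6 regulators 3 in each genotype. The median absolute log2 ratio of the 30 genes was 0.50 in Aire-/- and 0.28 in Aire+/+ libraries, beside 0.37 and 0.35 for all genes tested.

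**Figure D4:**
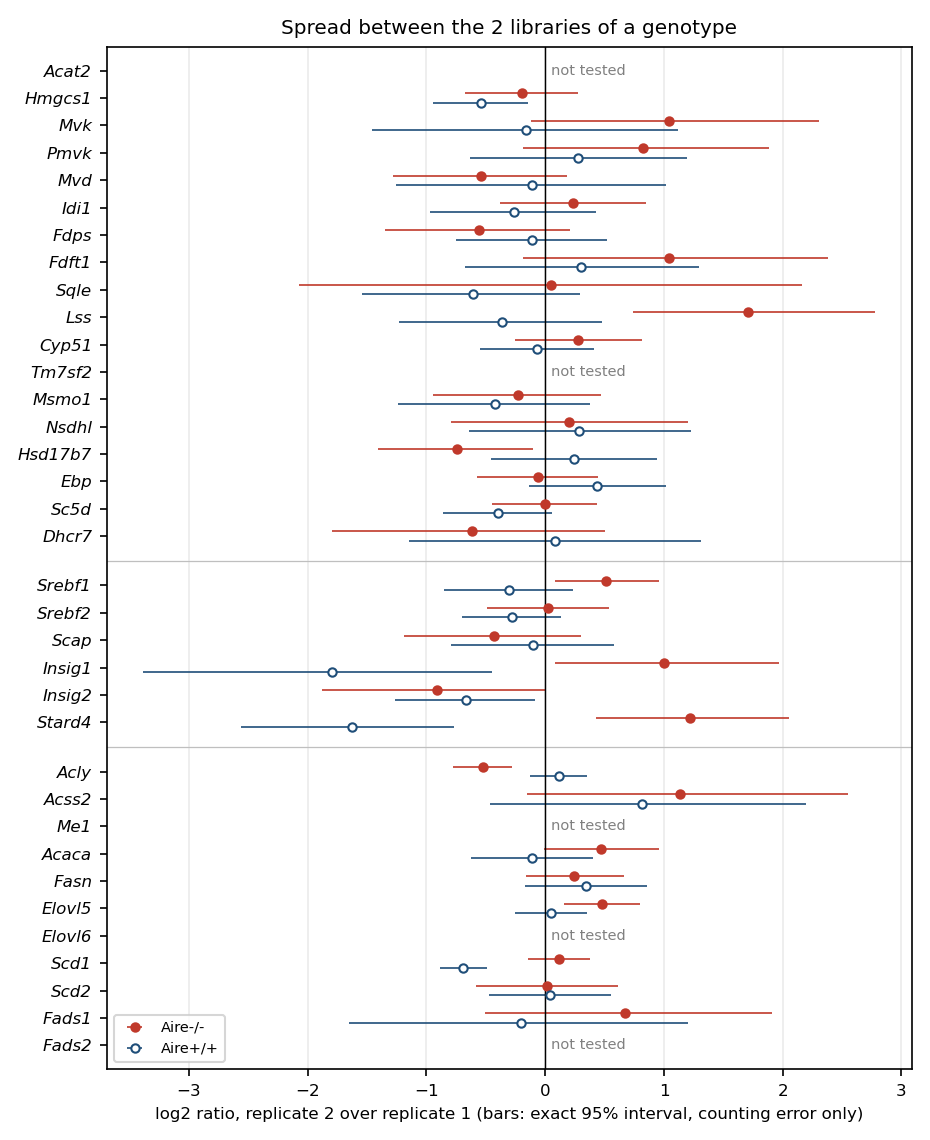
Log2 ratio of replicate 2 over replicate 1 for each tested gene in pathway order, filled for Aire-/- and open for Aire+/+ libraries, with exact 95% intervals that cover counting error only. Insig1 and Stard4 lie to the right of 0 in Aire-/- (1.00 and 1.22) and to the left in Aire+/+ libraries (-1.79 and -1.63).

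Stard4, a soluble carrier that moves cholesterol between membranes, was the clearest case. It stood at 18.3 and 42.4 CPM (20 and 45 counts) in Aire-/- and 39.6 and 12.8 CPM (49 and 15 counts) in Aire+/+ libraries. The libraries of a genotype differed 2.32-fold (log2 interval 0.43 to 2.05) and 3.09-fold, while the means of the genotypes, 30.4 ± 17.1 and 26.2 ± 18.9 CPM (SD, n = 2 each), were close. Insig1 had the same 2 libraries high, Aire-/- replicate 2 and Aire+/+ replicate 1, with ratios of 2.00-fold and 3.46-fold within the genotypes. Lss stood at 10.96 and 35.8 CPM in Aire-/- libraries, a 3.27-fold ratio (log2 interval 0.74 to 2.78), and at 24.2 and 18.8 CPM in Aire+/+ libraries. The direction of Stard4 and Lss turned with the library left out, from -0.53 to 1.23 for Stard4 and from -0.97 to 0.74 for Lss. An antisense gene, 4930483K19Rik, shares 381 exonic bases with Lss. The macrophage marker Lyz2 was high in the same 2 libraries as Stard4, at 1 and 61 against 186 and 2 counts. Its list did not share this pattern as a whole. Csf1r (1 and 6 against 14 and 3 counts) and Cd68 (4 and 9 against 8 and 6) leaned the same way at low counts. Emr1 (15 and 3 against 2 and 6 counts) leaned the other way in both genotypes. Fcgr1 (5 and 0 against 4 and 2 counts) did so in the Aire-/- pair. Apoe (100 and 89 against 307 and 105 counts) and Ctss (270 and 258 against 508 and 352) were not high in Aire-/- replicate 2. The part of macrophages in these values was not tested.

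Other genes with a spread beyond counting error were Hsd17b7 (52.1 and 31.1 CPM), Acly (311 and 216 CPM), Elovl5 (131 and 182 CPM) and Srebf1 in the Aire-/- pair, and Hmgcs1, Insig2 and Scd1 in the Aire+/+ pair. Elovl6, untested for its low counts, had 8 and 20 counts in Aire-/- libraries and 10 and 9 in Aire+/+ libraries. Sqle and Mvd did not show such a spread in either genotype, although with 5 counts in each Aire-/- library the interval of the Sqle ratio ran from -2.07 to 2.165 on the log2 scale.

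Sterol and fatty acid enzymes were then compared as groups. The log2 fold change was above 0 for 9 of 16 sterol enzymes tested, 6 of 8 fatty acid enzymes and 3 of 6 regulators, beside 50.9% of all 9783 genes. The medians were 0.16 for sterol enzymes, 0.16 for fatty acid enzymes, 0.079 for regulators and 0.01 for all genes. The medians turned with single libraries: without Aire-/- replicate 2 they were -0.10 for sterol, -0.076 for fatty acid genes and -0.16 for regulators, and without Aire+/+ replicate 2 the regulators were at -0.24.

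In summed CPM the 18 sterol enzymes stood at 564 and 574 in the Aire-/- pair against 558 and 495 in the Aire+/+ pair, and the 11 fatty acid enzymes at 881 and 918 against 1026 and 894. The sterol to fatty acid ratio within a library, which does not depend on how libraries are scaled, was 0.641 and 0.625 for the Aire-/- pair and 0.544 and 0.554 for the Aire+/+ pair. The ratio was therefore higher in both Aire-/- libraries, by 0.21 on the log2 scale with a spread between replicates of 0.022 (pooled SD). It rested on Scd1, the gene with the highest mean CPM. Without Scd1 the ratios were 0.856 and 0.846 against 0.971 and 0.806, which overlap, and the difference was -0.056. With each gene weighing the same the difference was 0.057, and with the most abundant gene of each arm left out it was 0.022. No test was made of this ratio.

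**Figure D5:**
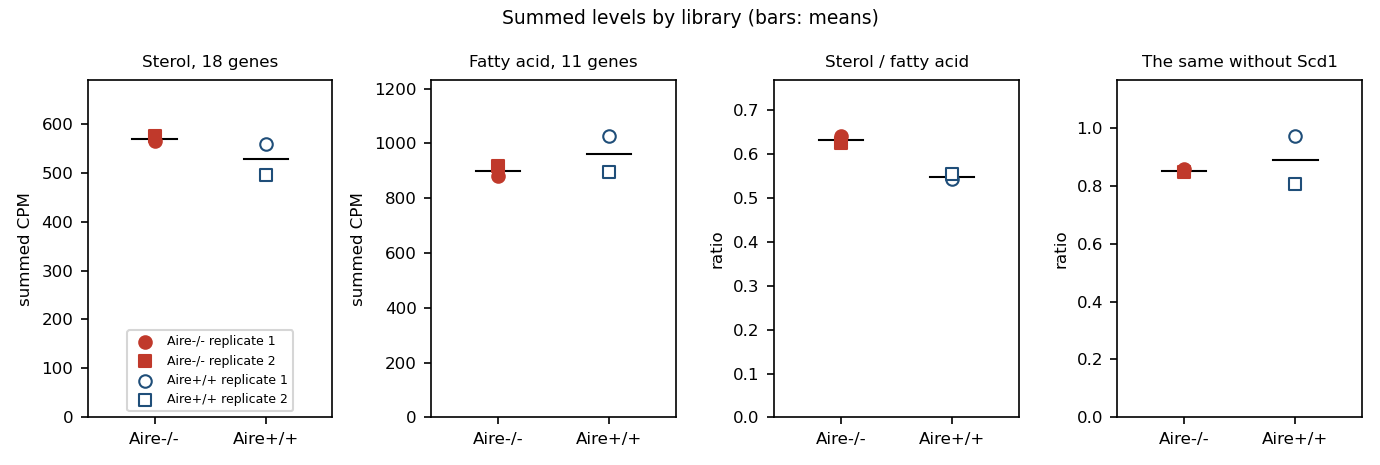
Summed CPM of the 18 sterol and 11 fatty acid enzymes, and the ratio of the sums with and without Scd1, by library. Filled symbols are Aire-/- and open symbols Aire+/+ libraries, circles replicate 1 and squares replicate 2, and bars are means. The ratio separates the genotypes (0.641 and 0.625 against 0.544 and 0.554), and without Scd1 the Aire+/+ libraries (0.971 and 0.806) lie on both sides of the Aire-/- pair.

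A further 62 genes of these pathways, which act in sterol transport, esterification, SREBP processing, fatty acid activation and related steps, were in the count table, and 49 were tested. The median log2 fold change of these was 0.065 with 27 above 0, and edgeR called 0 in either direction over all genes. Those with an unadjusted p under 0.05 numbered 2 higher and 0 lower, beside 2.8% and 2.77% of all genes tested. The 3 smallest p on the higher side were those of Acsl4, the acyl-CoA synthetase that prefers arachidonate, at 134 and 156 against 74.3 and 89.8 CPM (0.82, adjusted p = 0.78 by edgeR), of Acat1, the mitochondrial thiolase, at 169 and 220 against 118 and 135 CPM (0.62, adjusted p = 0.89), and of Cyb5r3, a reductase that feeds electrons to desaturases (0.61, adjusted p = 0.91). On the lower side they were those of Soat2, a cholesterol esterifying enzyme (-0.62, adjusted p = 0.93), Slc25a1, the carrier that exports citrate from mitochondria (-1.04, adjusted p = 0.94), and Dhdds, which makes dolichol chains (-0.63, adjusted p = 0.94).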

How the data were processed

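The deposited table gives whole-number read counts by gene symbol with 1 column for each library, per the file headers, with differing totals and no normalization visible in the values. Libraries were made by Smart-Seq2, per the labels' protocols, and the submitters' processing notes list TopHat2 2.0.10, Cufflinks 2.2.1 and the build mm10 but not what each was used for. How reads were counted, with which annotation and with what use of strand or shared reads, is not given in the sources used here.

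Groups were taken from the sample titles. The 35 genes, the pathway lists and the marker lists were chosen with earlier results of these data known. The main test was the quasi-likelihood test of edgeR 4.0.16 (R 4.3.3) on all 4 libraries, with genotype as the sole term. Genes were kept by filterByExpr (minimum count 10, minimum total 15) and scaled by TMM, and Benjamini-Hochberg adjustment ran over the 9783 genes kept. DESeq2 1.42.0 and limma 3.58.1 served as alternatives. The SE is approximate and was derived from the F statistic and the fold change. At depths of 1106891 to 1265239 counts, genes of a few counts were not tested. All 35 genes are accounted for, and of the further genes of these pathways Lbr and the 3 smallest p in each direction are named. Older symbols were matched through RefSeq. Positions, transcript lengths and overlaps came from GENCODE M21 (GRCm38, the assembly that mm10 names), and transcripts of at least 95% identity over at least 100 bases from BLAST 2.17.0. The libraries of a pair differed by more than sampling noise, as the chi-square of their counts over its degrees of freedom was 4.10 for the Aire-/- pair and 4.00 for the Aire+/+ pair. Alternatives were other size factors, filters, tools, a threshold of 0.1, the replicate number as a block, Rn45s left out and each library left out. The steps were tested on simulated data. Sums were made in R and figures in Python 3.11.15 (matplotlib 3.10.9).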

Additional observations from a re-analysis of the deposited data

How the results depend on the processing

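Counts of members called over all genes were 0 in each direction under every alternative with all 4 libraries, and 0 to 0 higher and 0 to 1 lower as single libraries were left out. Members at an unadjusted p under 0.05 then ranged from 1 to 4 higher and from 0 to 3 lower. Over all genes these fits called 5 to 21 higher and 6 to 42 lower, and had 257 to 386 higher and 172 to 398 lower at an unadjusted p under 0.05. The median log2 fold change ranged from -0.10 to 0.30 for sterol, -0.24 to 0.48 for regulator and -0.076 to 0.56 for fatty acid genes, and the sterol to fatty acid difference from 0.19 to 0.22. With no filter on low counts the sterol median was 0.31, with 2 more genes tested. At an adjusted p under 0.05 that fit called 21 higher and 26 lower of all 20402 genes. The other fits with all 4 libraries called 0 to 2 higher and 1 to 4 lower over all genes. The sterol to fatty acid difference was 0.057 with each gene weighing the same, 0.022 without the most abundant gene of each arm and -0.056 without Scd1, the last chosen after seeing the data. Of 359 values of single genes under alternatives, 337 kept their direction and their side of an adjusted p of 0.05, 21 reversed and 1 passed it (Scd1 without Aire+/+ replicate 2). Several crossed an unadjusted 0.05, among them Sqle, Insig2 and Scd1 without Aire+/+ replicate 1. Replicate numbers are shared between genotypes, but same-numbered libraries did not deviate together (r = -0.077 across genes, which are not independent). With the replicate block 3 members were higher and 3 lower at an unadjusted p under 0.05, beside 275 and 266 of all 9783 genes. With that block 0 members were called, beside 2 higher and 4 lower over all genes. The ratio difference within numbers was 0.24 and 0.17, and with the block Lss turned to -0.027. Lss also turned to -0.11 with limma-voom, and Elovl5 to -0.008 with upper-quartile factors. The other reversals came with single libraries left out, over ranges of -0.18 to 0.34 for Acly, -0.45 to 0.68 for Acss2, -0.28 to 0.007 for Cyp51, -0.23 to 0.26 for Elovl5, -0.97 to 0.069 for Fdft1, -0.97 to 0.74 for Lss, -0.13 to 0.92 for Mvk, -0.16 to 0.12 for Nsdhl, -0.55 to 0.28 for Pmvk, -0.27 to 0.15 for Scap and -0.53 to 1.23 for Stard4. The cause was not tested. Depth limits the genes of few counts, such as Sqle and Insig1.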
